A study of Saccharomyces cerevisiae with 14 samples.

Results

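The regions described here are the Sef1 sites that were called reproducibly after growth on glycerol and not reproducibly after growth on glucose, called glycerol-only sites below. They were selected by the calls themselves. Intervals of the 7 deposited peak lists were joined wherever they shared 1 bp or more, which gave 1066 merged sites, and a site was kept when all 3 glycerol lists and at most 2 of the 4 glucose lists had called it. This left 108 sites, 10.1% of all merged sites. The calls and enrichments in the 2 media therefore describe how the sites were chosen and carry no test. Of the remaining sites, 225 were called in all 3 glycerol lists and at least 3 glucose lists (sites called in both media), 312 in at least 3 glucose lists and not in every glycerol list (YPD-only sites), and 421 had fewer calls.

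The lists came from ChIP-seq of Saccharomyces cerevisiae W303 cells (MATa) whose SEF1 gene carried a TAP tag (SEF1-TAP::FRT), which every sample shared. Cells were first grown overnight in YPD, the rich medium with glucose. They were then diluted and grown for 4.5 h at 30 °C in YPD (4 repeats) or in YPGly, the same medium with glycerol (3 repeats). The YPGly cells had thus been moved from glucose to glycerol 4.5 h before. Each immunoprecipitated library was compared with its own input. Cultures were at an OD600 of 1.0 per ml in YPD and 0.4 per ml in YPGly, and 1500 OD600 units of cells went into a YPD sample against 500 into a YPGly sample, so medium, density and amount of material cannot be told apart. YPGly repeat 3 was sequenced in pairs and apart from the others, and no untagged strain was analysed here. Reads of W303 had been mapped to the R64 genome of strain S288C, to which all positions below refer.

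Sef1 is a zinc cluster protein, a family of fungal transcription factors that bind CGG triplets, often in pairs of fixed spacing and orientation. Its orthologue in Candida albicans is known as an activator of iron uptake genes. Yeast growing on glycerol takes it up, oxidizes it to triose phosphate, respires, and makes hexoses by gluconeogenesis. Many genes for these steps, and for the uptake of other carbon sources, are kept low by glucose.

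The sequences below show the inverted triplet pair CCGN5CGG, which is its own reverse complement, at the 8 glycerol-only sites with the highest YPGly enrichment among those that hold an exact match in the 250 bp around their center. Each is the plus strand of R64, 5′ to 3′, with 30 bases to each side of the match, which is in capitals.
STL1, chrIV:1507453-1507523: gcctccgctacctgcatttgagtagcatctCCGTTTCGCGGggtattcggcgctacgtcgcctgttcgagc
JEN1, chrXI:21619-21689: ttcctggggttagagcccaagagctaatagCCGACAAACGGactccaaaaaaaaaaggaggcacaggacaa
YAT1, chrI:190031-190101: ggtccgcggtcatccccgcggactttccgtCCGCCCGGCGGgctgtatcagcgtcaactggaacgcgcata
ICS2/AMN1, chrII:555071-555141: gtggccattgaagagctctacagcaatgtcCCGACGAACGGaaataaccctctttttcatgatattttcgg
FAT3, chrXI:92487-92557: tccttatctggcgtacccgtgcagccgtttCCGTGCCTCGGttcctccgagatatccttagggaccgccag
HXT6, chrIV:1162192-1162262: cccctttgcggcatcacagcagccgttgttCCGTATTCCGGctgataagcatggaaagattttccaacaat
GAL10/GAL1, chrII:278549-278619: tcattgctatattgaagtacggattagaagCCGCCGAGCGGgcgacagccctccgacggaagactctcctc
RNR4/TIM13, chrVII:856781-856851: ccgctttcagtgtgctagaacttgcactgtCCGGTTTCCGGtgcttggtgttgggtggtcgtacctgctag
The most enriched glycerol-only sites whose windows had no exact match were PCK1, TPO1, AQY1, SFC1, YKR041W and TIR2. In 120 bases around the site center they held 5, 5, 4, 6, 2 and 1 CGG or CCG triplets, respectively, overlapping ones counted apart. The 3 sequences that follow are those with the most triplets, so they do not stand for the others. They show these 120 bases, plus strand of R64, with every CGG and CCG in capitals.
PCK1, chrXI:630560-630679: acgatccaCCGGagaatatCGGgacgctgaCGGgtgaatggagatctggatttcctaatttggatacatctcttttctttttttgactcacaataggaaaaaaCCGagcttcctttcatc
TPO1, chrXII:83847-83966: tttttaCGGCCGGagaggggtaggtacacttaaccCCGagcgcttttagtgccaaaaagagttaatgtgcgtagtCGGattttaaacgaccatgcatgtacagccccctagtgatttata
SFC1, chrX:609086-609205: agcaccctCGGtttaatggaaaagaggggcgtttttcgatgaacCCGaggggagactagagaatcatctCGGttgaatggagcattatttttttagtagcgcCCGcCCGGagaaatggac

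An exact CCGN5CGG was found in 17 of the 108 glycerol-only windows (15.7%, exact binomial 95% interval 9.45 to 24.0, counting error only). The share was 18.7% for the 225 sites called in both media (13.8 to 24.4), 0.641% for YPD-only sites and 3.09% for sites with fewer calls. It was 1.39% for 216 windows 1000 bp to either side of the glycerol-only sites, and 0.883% for 6001 promoters, taken as the 250 bp before each ATG. These promoter windows lay closer to the ATG than most glycerol-only sites, whose median was 469.5 bp upstream, so position was not matched. The shares of glycerol-only sites and of sites called in both media had overlapping intervals, and both stood above those of the other windows. The study derived its Sef1 motif, a CGG pair with this spacing, from the peaks most enriched in YPGly in these same data. Higher shares at sites with YPGly peaks are therefore partly built in and are no independent support for the pattern. Because neighbouring regions and genes are not replicates, no test was made. The 17 sites held 18 matches, with a pair of matches at TSL1, and 15 of the 18 lay at most 50 bp from the site center, with a median of 30.5 bp. The median YPGly enrichment was 2.04 for the sites with a match and 2.07 for the others. With 1 mismatch allowed in the 6 fixed bases, the share was 66.7% for glycerol-only sites and 70.2% for sites called in both media. It was 31.1% for YPD-only sites, 34.2% for sites with fewer calls, 31.5% for flanks and 19.9% for promoters.

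**Figure D1:**
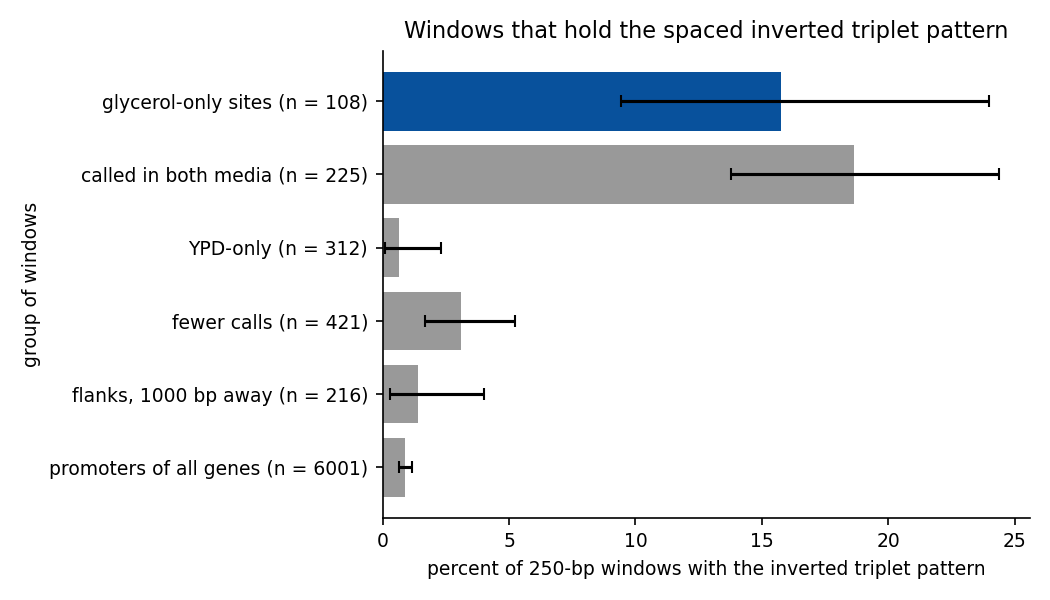
Percent of 250-bp windows with an exact CCGN5CGG (x axis) in glycerol-only sites, the other groups of sites, the flanks of glycerol-only sites and all promoters (y axis), where bars are shares and whiskers exact 95% binomial intervals. Glycerol-only sites (15.7%) and sites called in both media (18.7%) stand above the other 4 groups, of which the highest is 3.09%. The pattern was itself derived from YPGly peaks of these data, so this order is partly built in.

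Other patterns were searched on both strands of the same windows, and matches of different patterns could share triplets. CGGN7CGG, a pair of triplets in the same orientation, was present in 15.7% of glycerol-only windows and 21.3% of both-media sites. It was present in 7.37% of YPD-only sites, 0.926% of flanks and 2.00% of promoters. The PCK1 window, which had no exact CCGN5CGG, held 2 matches of CGGN7CGG. CCN6CCG, the outline of the carbon source response element bound by Cat8 and Sip4, was present in 48.1% of glycerol-only windows, 43.6% of sites called in both media, 12.5% of YPD-only sites, 14.4% of flanks and 8.60% of promoters. CCCCT, the stress response element bound by Msn2 and Msn4, was present in 35.2%, against 36.0% in both-media sites and 18.8% of promoters. CCAAT, bound by the Hap complex, was present in 33.3% of glycerol-only windows and 35.4% of promoters. CGGN11CCG, the outline of the Gal4 site, was found in 14 glycerol-only windows (13.0%), against 8.00% of both-media sites and 8.33% of YPD-only sites. It was found in 4.17% of flanks and 1.17% of promoters, and the GAL10/GAL1 window alone held 3 matches of it. Windows of glycerol-only sites had a median GC content of 45.8%, close to the 45.2% of both-media sites, whereas YPD-only sites had 39.2%, flanks 41.2% and promoters 34.8%. All patterns but CCAAT are rich in G and C, and the part of base composition in their shares was not tested.

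Enrichment, the fold of ChIP over input that the authors' peak caller estimated at each peak, ranged from 1.17 to 21.4 across the 108 sites as a mean over the 3 YPGly repeats, with a median of 2.06. Only 2 sites had a mean of at least 10, 11 of at least 5, 24 of at least 3 and 59 of at least 2. The sites were thus mostly weak peaks, with a long upper tail. By comparison, the 225 sites called in both media had a median of 3.40 and reached 245. Within each list, the most enriched glycerol-only site ranked number 27 of the 520 peaks in YPGly repeat 1, 27 of 373 in repeat 2 and 25 of 395 in repeat 3, and the median site ranked 247, 231 and 224.5. The false discovery rate was the lowest that the list gives at 107, 90 and 103 of the 108 sites, respectively. A call in all 3 of these lists was required, so low rates are partly built in. The share of all peaks at that lowest rate is not given here, so the counts mark no trait of these sites.

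The 3 YPGly lists differed by a shift that ran through nearly all sites. Repeat 1 gave the highest enrichment at 97 of the 108 sites and repeat 2 the lowest at 96, and the medians over the sites were 2.41, 1.80 and 2.00. The same order was seen at sites called in both media, where repeat 1 was highest at 200 of 225 and repeat 2 lowest at 202. The coefficient of variation over the 3 repeats had a median of 16.1% and a range of 1.18 to 34.8%. As a description across sites, which share their libraries, Spearman's rho between pairs of YPGly lists was 0.938 to 0.969 over the 108 sites.

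**Figure D2:**
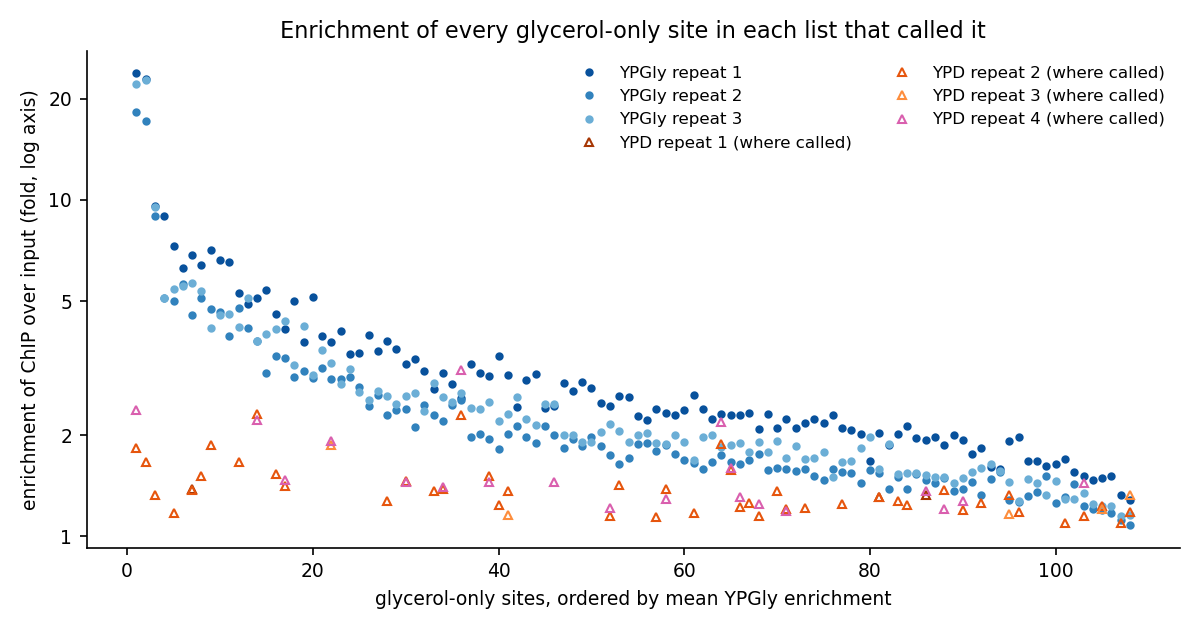
Enrichment of ChIP over input (y axis, log scale) for all 108 glycerol-only sites ordered by mean YPGly enrichment (x axis), with circles for the 3 YPGly repeats and open triangles for YPD repeats that called the site. YPGly means fall from 21.4 to 1.17, and all but 6 of the 74 YPD calls lie under 2.

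The most enriched sites, at STL1 and JEN1, belonged to genes of carbon uptake. STL1 encodes the glycerol proton symporter of the plasma membrane. Its site, centered at chrIV:1507453 and 552 bp upstream of the ATG, had YPGly enrichments of 23.8, 18.3 and 22.1 (21.4 ± 2.82, SD, n = 3). YPD repeat 2 called it at 1.83 and YPD repeat 4 at 2.37, and YPD repeats 1 and 3 did not call it. The YPGly values did not overlap the YPD values, and the mean of the called values was 10.2-fold higher in YPGly. The 3 YPGly peaks were placed at the same base.

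JEN1 encodes the symporter for lactate and pyruvate. Its main site, at chrXI:21626 and 608 bp upstream of the ATG, had enrichments of 23.0, 17.2 and 22.8 in YPGly (21.0 ± 3.28, SD, n = 3). YPD repeat 2 alone called it, at 1.66, which put the YPGly mean 12.6-fold higher, the largest ratio among the 49 sites that had a YPD call. A weaker glycerol-only site lay 626 bp further upstream at chrXI:21000, with 2.91, 1.97 and 2.23 in YPGly and no YPD call. Its 3 peaks were spread over 211 bp, the widest spread of any glycerol-only site with a single peak per YPGly list, and whether its calls were independent of the stronger neighbour was not tested.

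Other uptake and export genes had lower values. AQY1, which encodes a water channel active in spores, had 7.31, 5.02 and 5.43 (5.92 ± 1.23), as the mean of a pair of peaks in each YPGly list, and YPD repeat 2 called it at 1.17. TPO1, a polyamine exporter, had 8.95, 5.10 and 5.10 with no YPD call, at 897 bp upstream of the ATG. In TPO1, a site called in both media lay closer to the ATG, 522 bp upstream, with YPGly and YPD means of 15.9 and 11.8. ATO2 and ATO3, of the family of ammonium and acetate transporters, had YPGly means of 2.96 ± 0.52 and 1.68 ± 0.24 (SD, n = 3) and no YPD call.

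PDR12, the exporter of weak organic acids, had 5.12, 3.80 and 3.80 in YPGly, and YPD repeats 2 and 4 called the site at 2.30 and 2.22. YPGly and YPD values did not overlap, with a ratio of means of 1.87. It lay 433 bp from a stronger site called in both media, which had a YPGly mean of 26.5 and a YPD mean of 9.24. The separate call in YPD is thus close to a site at which both media had strong peaks.

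Glycerol-only sites also lay at genes of gluconeogenesis and of the glyoxylate shunt. PCK1 encodes phosphoenolpyruvate carboxykinase, which makes phosphoenolpyruvate from oxaloacetate. Its site, 532 bp upstream of the ATG, had 9.61, 8.93 and 9.52 in YPGly (9.36 ± 0.37, SD, n = 3) and a single YPD call of 1.33 in repeat 2. SFC1, the mitochondrial carrier that exchanges succinate for fumarate, had 6.29, 5.63 and 5.56 and no YPD call. PYC1, a cytosolic pyruvate carboxylase, had 4.13, 3.39 and 4.37 in YPGly, and 1.41 and 1.47 in YPD repeats 2 and 4. ICL1, the isocitrate lyase of the shunt, had 2.84, 2.46 and 2.51 and no YPD call at its glycerol-only site, 408 bp upstream of the ATG. A YPD-only site lay 1561 bp upstream. It was also called in YPGly, though not in every list, with means of the called values of 1.40 in YPGly and 1.76 in YPD. In this list, FBP1, ICL2, MLS1, MDH2 and CIT2 had sites called in both media instead.

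**Figure D3:**
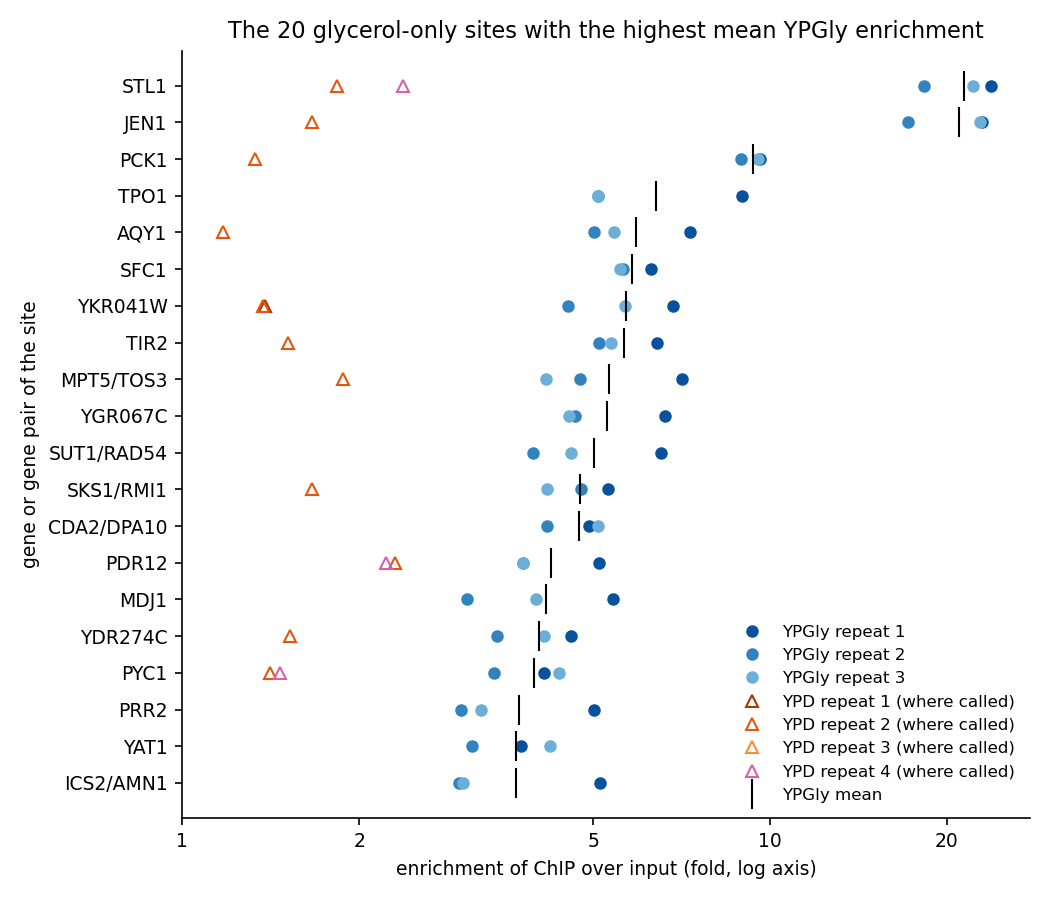
Enrichment of ChIP over input (x axis, log scale) of the 20 glycerol-only sites with the highest mean in YPGly, named by gene or divergent gene pair (y axis), with circles for YPGly repeats, bars for their mean and triangles for YPD repeats where called. STL1 (21.4) and JEN1 (21.0) stand apart from PCK1 (9.36) and the rest. Where a YPD repeat called one of these sites, the YPGly values lie above that call, an order that the selection favours. Sites without a YPD call have no YPD value to compare.

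To read the genes as groups, 12 lists of pathway genes were used, and each count was set beside the share of all protein-coding genes with a glycerol-only site, which was 131 of 6002, or 2.18%. The lists were written with earlier results of these data known, so shares above that level do not support a link between a pathway and the sites. Of 13 genes of gluconeogenesis and the glyoxylate shunt, 4 had a glycerol-only site, and so did 5 of 24 genes for the uptake and use of carboxylates, acetate and glycerol. Of 20 TCA cycle enzyme genes, 0 had a glycerol-only site, which is close to the 2.18% over all genes and marks no difference from them. A site called in both media was found for 8 of the 20, against 265 of the 6002 protein-coding genes (4.42%). MDH1, the mitochondrial malate dehydrogenase, came closest, just outside the rule, and its values are given with the sites at the threshold.

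**Figure D4:**
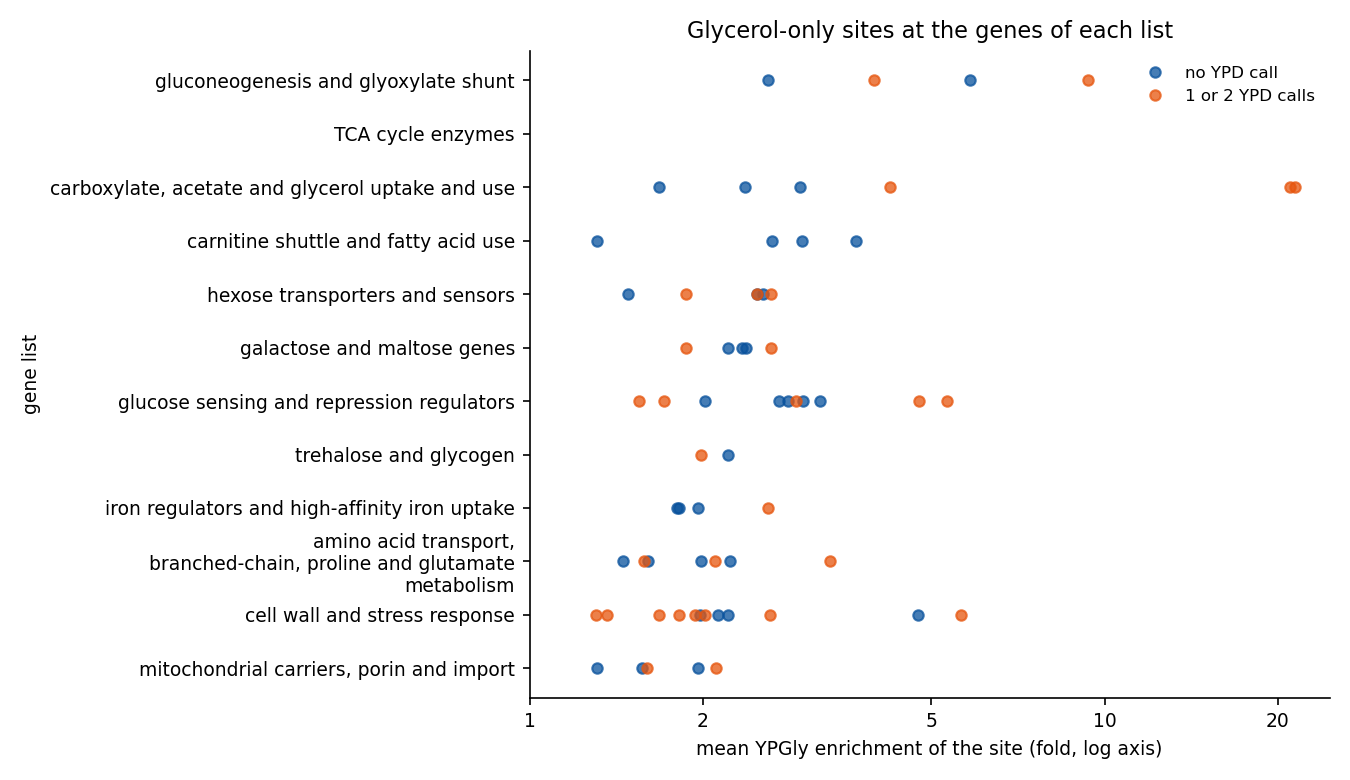
Mean YPGly enrichment (x axis, log scale) of glycerol-only sites at genes of the 12 lists (y axis), a point per site, blue without and orange with a YPD call. The list of TCA cycle enzymes is empty, which is close to the share of 2.18% over all genes. STL1 and JEN1 are the 2 points near 21.

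Of 16 genes of the carnitine shuttle, which carries acetyl units between compartments, and of fatty acid use, 3 had a glycerol-only site. These were YAT1, FAT3 and ACC1. YAT1 is a carnitine acetyltransferase of the outer mitochondrial membrane. It had 3.77, 3.11 and 4.23 in YPGly and no YPD call, at 156 bp upstream of the ATG, and its match of CCGN5CGG is printed above. FAT3, which has a part in fatty acid uptake, had a pair of glycerol-only sites 552 bp apart, with YPGly means of 2.98 ± 0.85 and 2.64 ± 0.41 and no YPD call. A site between TIM23, of the inner membrane translocase, and ACC1, the acetyl-CoA carboxylase, was among the weakest, with 1.47, 1.21 and 1.25.

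Glycerol-only sites also lay at genes for sugars. Among 19 hexose transporter and sensor genes, 5 (HXT5, HXT6, HXT8, HXT9 and HXT13) had glycerol-only sites, with YPGly means from 1.48 at HXT13 to 2.63 at the site shared by HXT9 and the isomaltase gene IMA4. HXT6 encodes a high-affinity glucose transporter and lies beside its near-identical copy HXT7. HXT6 had a pair of sites 458 bp apart, with 3.26, 1.97 and 2.41 at the nearer site and 3.42, 1.81 and 2.21 at the farther, which YPD repeat 2 called at 1.24. No 75-base word of either HXT6 window occurred elsewhere in the genome, 75 bases being the read length. In the IMA4/HXT9 window all such words did (100%), so its reads could not be placed at this locus alone and its call is uncertain.

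Of 17 galactose and maltose genes, 6 had glycerol-only sites. The divergent GAL10/GAL1 promoter, between the epimerase and the galactokinase, had 2.41, 2.13 and 2.48 in YPGly (2.34 ± 0.18). GAL3, the galactose sensor, had 2.42, 2.13 and 2.59. Neither site had a YPD call. MAL33, a maltose activator gene, shared its site with TYC1 (2.22 ± 0.43), and IMA5 shared its own with HXT8 (1.87 ± 0.26, with a YPD call in repeat 2 of 1.36).

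Regulators of glucose sensing and repression gave 8 genes of 32. TOS3, a kinase upstream of Snf1, shared a site with MPT5, an RNA-binding protein, at 7.08, 4.75 and 4.15, and YPD repeat 2 called it at 1.87. SKS1, a kinase linked to adaptation to low glucose, shared a site with RMI1 at 5.30, 4.78 and 4.18, with a YPD call in repeat 2 at 1.66. A site called in both media lay 312 bp away, with similar means of 4.54 in YPGly and 1.62 in YPD. REG2, a regulatory subunit of the Glc7 phosphatase, had 3.48, 2.98 and 3.14 and no YPD call. MIG2, a glucose-dependent repressor, and MTH1, a regulator of hexose transporter genes, each had a pair of glycerol-only sites, with means of 2.90 and 1.72 at MIG2 and 2.99 and 2.02 at MTH1. MTH1 had no YPD call, while both MIG2 sites had at least 1. The zinc finger genes USV1 and GIS1 had means of 2.81 and 2.72, and CYC8, the corepressor that acts with Tup1, had 1.55. Among the 20 most enriched sites was also SUT1, a zinc cluster regulator of sterol uptake, whose site shared with RAD54 had 6.52, 3.95 and 4.59 and no YPD call.

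The remaining lists held sites over a wide range. Cell wall and stress genes gave the largest number, 12 of 30, from TIR2, a cell wall mannoprotein (5.64 ± 0.70), and CDA2, a chitin deacetylase of the spore wall (4.73 ± 0.49), down to MID2, a wall stress sensor (1.31 ± 0.16). Amino acid genes gave 8 of 26, from BAT2, the cytosolic branched-chain aminotransferase, at 3.79, 2.94 and 3.27, to the site between LEU4 and MET4 at 1.64, 1.26 and 1.46. BAT2 had YPD calls of 1.87 and 1.93 in repeats 3 and 4. Iron genes gave 4 of 34: the activator AFT1 (1.80 ± 0.35), the iron permease FTR1 (1.82 ± 0.37), the oxidase FET3 at a site shared with AAC1 (1.97 ± 0.29), and ISA1, described with the YPD calls. Mitochondrial carriers, porin and import genes gave 5 of 19, all with means of at most 2.11. Trehalose and glycogen genes gave 2 of 20, the trehalose synthase subunit TSL1 (1.99 ± 0.56) and GIP2 (2.21 ± 0.48), which encodes a partner of the Glc7 phosphatase.

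A further 6 of the 20 most enriched sites lay at genes outside the lists. YKR041W, of uncharacterized function, had 6.85, 4.54 and 5.67 in YPGly and calls of 1.38 and 1.37 in YPD repeats 1 and 2. MDJ1, a mitochondrial chaperone of the DnaJ family, had 5.41, 3.05 and 4.00 and no YPD call. PRR2, a protein kinase, had 5.02, 2.99 and 3.22 and no YPD call. ICS2/AMN1 had 5.14, 2.96 and 3.01 and no YPD call, where AMN1 is a mitotic exit inhibitor. The same gene pair had a site called in both media (3.21 in YPGly, 2.06 in YPD) and a YPD-only site (1.62). YDR274C had 4.59, 3.43 and 4.13, with a YPD call of 1.53 in repeat 2. YGR067C, a zinc finger protein gene, is described with the neighbours of strong sites.

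The name glycerol-only refers to reproducible calls and does not mean that YPD peaks were missing. Of the 108 sites, 59 (54.6%) had no YPD call, 24 had 1 and 25 had 2, which gave 74 calls in all. They were spread unevenly over the lists. YPD repeat 2, the longest list with 771 peaks, called 46 of the 108 sites and repeat 4 called 20 (610 peaks), whereas repeat 3 called 5 (615 peaks) and repeat 1 called 3 (528 peaks). Of the 24 sites with a single YPD call, 23 had it in repeat 2, and 17 of the 25 sites with 2 calls had them in repeats 2 and 4. With YPD repeat 2 left out and at most 1 call allowed in the other 3 YPD lists, 106 sites met the rule and 77.4% of them had no YPD call.

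The YPD calls were weak. Their enrichments ranged from 1.09 to 3.12 with a median of 1.33, and 68 of 74 were under 2. The peaks were placed a median of 24.7 bp, and at most 76.8 bp, from the mean YPGly position of the same site. In 46 of the 49 sites with a YPD call, the YPGly mean was higher than the mean of the YPD calls, with a median ratio of 1.54. In 43 of them each YPGly value was above each YPD value. The rule that chose the sites favours this order, so it is partly built in. No such count is given here for the other sites. The YPGly median was nearly the same with 0, 1 or 2 YPD calls (2.13, 2.06 and 1.96). A list holds no value where it made no call, so the level at the 59 sites without a YPD call is unknown, and the lowest enrichment of any peak in a YPD list was 0.988 to 1.03.

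The highest YPD values were at a site assigned to ISA1, a mitochondrial iron-sulfur assembly gene, which lay inside the TPO1 coding sequence 1857 bp upstream of ISA1. It had 2.59, 2.54 and 2.67 in YPGly, and 2.29 and 3.12 in YPD repeats 2 and 4, so that the media overlapped and the YPD mean was the higher. This site lay between the shared TPO1 site and the ISA1 site called in both media, which had a YPGly mean of 206 and a YPD mean of 314. Of the other sites with the highest YPD calls, RUP1/SFL1 had 2.31, 1.74 and 1.84 in YPGly and 1.88 and 2.18 in YPD repeats 2 and 4, also overlapping. In TBS1/APD1, the weakest of all glycerol-only sites, YPGly gave 1.28, 1.08 and 1.15, and YPD repeats 2 and 3 gave 1.18 and 1.33. At these 3 sites, the ratio of means was below 1. The other sites at the low end were RIM4, a regulator of meiosis, at 1.33, 1.12 and 1.15 with a YPD call of 1.09, and ACA1/SPO73, at 1.51, 1.17 and 1.23 with none.

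How far a call in a list could be foreseen from the others was described by setting aside each list in turn. Sites called in YPGly repeats 2 and 3 and in at most 2 YPD lists numbered 111, and repeat 1 called 108 of them (97.3%). For repeat 2 the share was 108 of 134 (80.6%), and for repeat 3 it was 108 of 115 (93.9%). For sites with at least 3 YPD calls the shares were 98.3%, 94.9% and 95.7%. The gap was widest for repeat 2, the shortest YPGly list. In the opposite direction, of sites called in all YPGly lists and in 0 of the other 3 YPD lists, YPD repeat 2 called 23 of 82 (28.0%), repeat 4 called 1 of 60, and repeats 1 and 3 called 0 of 59 each, which allows a share of up to 5.08% (3 in 59, counting error only). Where the other 3 YPD lists had all called the site, the set-aside list called 92.7 to 100% of them.

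At the threshold, the 25 sites with 2 YPD calls had a median YPGly mean of 1.96 and a median YPD mean of 1.33. The 22 sites just outside, with 3 YPGly and 3 YPD calls, had 1.99 and 1.56. The 36 sites that fell short by having 2 YPGly calls had a YPGly median of 1.50. The largest ratio of YPGly to YPD among the sites just outside was at MDH1, with 12.4, 6.75 and 8.16 in YPGly and 1.66, 1.38 and 1.62 in YPD repeats 2, 3 and 4, a ratio of means of 5.86. SLS1, a mitochondrial protein for expression of the mitochondrial genome, followed with 6.30, 5.06 and 7.20 in YPGly and 1.50, 1.47 and 1.85 in the same YPD lists. The next were TAT1, an amino acid permease (2.20), MCO6 (2.15) and POG1 (2.06), given as ratios of means. MDH1 and SLS1 thus had higher YPGly values than most glycerol-only sites and no YPD call above 2, and only the number of YPD calls set them apart.

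The sites lay mostly upstream of genes. A gene was assigned when the site center was between 2000 bp upstream and 200 bp downstream of its ATG, and 106 of the 108 sites (98.1%) had such a gene, against 96.0% of sites called in both media, 82.7% of YPD-only sites and 86.7% of all sites. In 31 sites the center was upstream of a divergent gene pair. The median distance was 469.5 bp upstream of the ATG (quartiles 305 and 727), against 432 bp for sites called in both media. At most 500 bp from the ATG lay 59 sites (54.6%), against 58.7% of both-media sites, 42.9% of YPD-only sites and 46.3% of all sites. A further 36 lay between 500 and 1000 bp and 11 beyond.

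**Figure D5:**
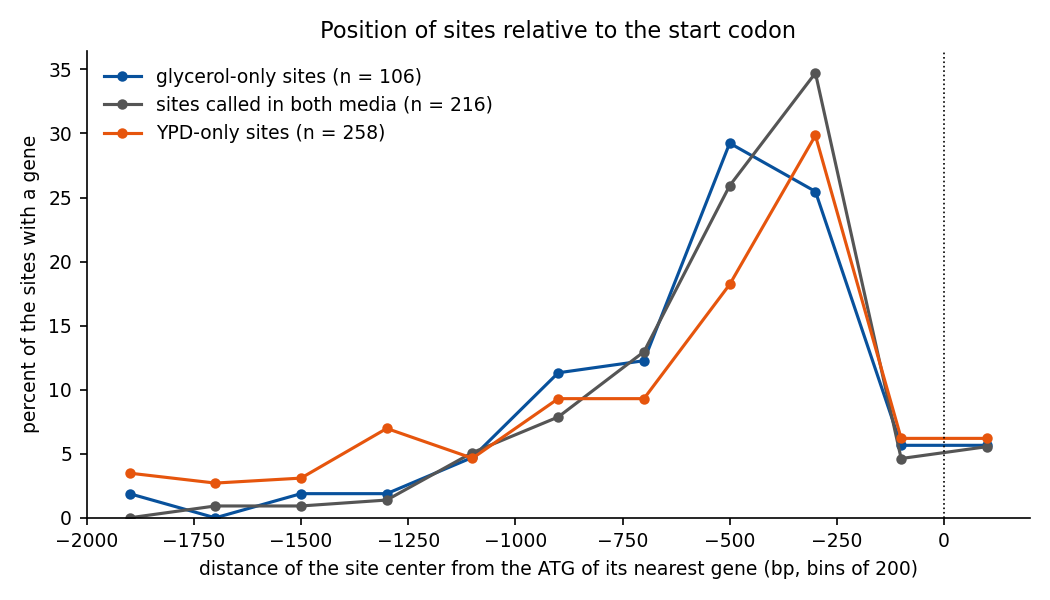
Percent of sites with a gene (y axis) by distance of the site center from the ATG of the nearest gene, in bins of 200 bp with negative values upstream (x axis), for glycerol-only sites, sites called in both media and YPD-only sites. The fullest bin of glycerol-only sites holds 29.2% of them and is centered 500 bp upstream, and that of both-media sites holds 34.7% and lies 200 bp closer to the ATG.

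Few glycerol-only sites lay at tRNA genes. At most 500 bp from a tRNA gene were 2 of the 108 sites (1.85%), against 11.6% of sites called in both media, 56.7% of YPD-only sites and 23.8% of all sites. A center inside a coding sequence was found for 21 sites (19.4%), against 15.1% of both-media sites and 28.3% of all sites. Of these, 6 lay in the start of their own gene, among them CWP1, SHR5 and PUT4, and 15 in another gene, such as HSF1 upstream of AFT1, the activator of iron uptake genes. SHR5 is named for this position after its values were seen. Sequence repeated elsewhere was rare, with any 75-base word found elsewhere in 2 glycerol-only windows (1.85%), against 54.8% of YPD-only windows. The sites lay on 15 chromosomes, from 1 on chromosomes I and VI to 15 on chromosome VII, and chromosome III had 0 of its 22 merged sites among them.

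The 2 sites without a gene are named after their values were seen. The site at chrIX:388434 lay between genes, with 3.24, 2.38 and 2.61 in YPGly and calls of 1.46 and 1.45 in YPD repeats 2 and 4. The site at chrXI:613072 lay inside SRP40, a nucleolar protein gene, with 1.68, 1.57 and 1.97 and no YPD call.

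Repeats placed the peaks closely. In the 104 sites with a single peak in each YPGly list, the 3 positions spanned a median of 15.0 bp, against 11.0 bp at 214 sites called in both media. The other 4 sites, AQY1, PYC1, MGA1 and ELO1/CDC6, had more than a single peak in a YPGly list, and the last 2 are named for this after their values were seen.

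Some sites had neighbours. Within 2000 bp, 24 sites had another glycerol-only site, as at JEN1, FAT3, MIG2, MTH1, HXT6, PUT4 and the pair of PYC1 and MRH4. Within the same distance, 5 sites (4.63%) had a site at least 5 times as high in YPGly, against 4.44% of sites called in both media. These were the weaker JEN1 site, PDR12, ISA1, YGL007C-A/YGL006W-A and YGR067C. The YGR067C site, inside ART5, had 6.63, 4.65 and 4.56 and no YPD call, and lay 546 bp from a site called in both media with means of 173.9 in YPGly and 14.1 in YPD. Whether such calls were independent of their strong neighbours was not tested. No other site of any kind lay within 2000 bp of 48 glycerol-only sites (44.4%, against 40.4% of both-media sites).

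A glycerol-only site was not always the only site of its gene. Of the 131 genes, 20 also had a site called in both media and 7 a YPD-only site, while 106 had neither. Over all protein-coding genes, 4.42% had a site called in both media and 5.13% a YPD-only site. The 20 genes are thus above the share over all genes, and the 7 are close to it. ZWF1, the glucose-6-phosphate dehydrogenase, had a glycerol-only site 844 bp upstream (2.01, 1.44 and 1.83) and a shared site 346 bp upstream with means of 6.74 in YPGly and 2.46 in YPD. PUT4, the proline permease, had a glycerol-only site 128 bp into its coding sequence (2.62, 1.64 and 2.06) and a shared site 626 bp upstream of the ATG with means of 5.40 and 3.02. STL1, JEN1, PCK1, SFC1, PYC1 and YAT1 had no shared and no YPD-only site.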

How the data were processed

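Sef1-TAP ChIP-seq of yeast grown in YPD (4 repeats) or YPGly (3 repeats) was read from the 7 peak lists that accompany the 14 samples. The authors trimmed and mapped reads of 75 bp to the R64 genome and called peaks in each repeat against its own input, without pooling. The submitters' processing notes name FastQC 0.11.8, Trimmomatic 0.36, Bowtie2 2.3.3, DiffBind 2.10.0, bcl2fastq and deepTools, and the peak caller is not given in the sources used here. The deposited lists give each peak a score for its signal, a q-value or FDR (also as its −log10) and a ratio, the fold enrichment of ChIP over input, for which the maximum-likelihood estimate was taken and a lower bound served as an alternative. The deposited values were not normalized again. The lists hold no read numbers. The depth behind a value is therefore unknown, and its error is the SD between repeats. The labels attach the peak lists to the input samples, and the study's methods describe the repeats of each medium as biological.

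Peaks overlapping by at least 1 bp were merged, and the mean was used where a list had several peaks in a site. Positions are as in the files. Genes were the 6002 nuclear protein-coding genes of the RefSeq R64 annotation, and a divergent gene was added when no coding gene lay between. Motifs were searched in 250-bp windows. The members, the gene lists and the rule for named genes were chosen with earlier results of these data known. Named were the 20 sites with the highest YPGly mean, the 3 lowest, the 5 with the highest YPD call, those with CCGN5CGG, those at a gene of the 12 lists, those within 2000 bp of another member or of a site 5 times as high, and the 5 sites just outside with the largest ratio. From these, the text gives the ones that bear on a statement. No test was made, because the calls chose the sites and regions are not replicates. Alternatives covered the merging overlap, an enrichment of at least 2, list length, the calls required, each repeat left out, the lower bound, gene windows, site position, motif windows and a mismatch. Merging and motif search were tested on simulated data and recovered 100% of 400 sites and 100% of 400 planted matches. Of 270 distinct genes of the lists with an annotation, 62 had a glycerol-only site. Scripts ran in Python 3.11.15 (matplotlib 3.10.9, scipy 1.17.1, pandas 2.3.3, numpy 2.4.6).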

Additional observations from a re-analysis of the deposited data

How the results depend on the processing

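The number of glycerol-only sites was 108. It was 117 with a reciprocal overlap of 50%, 74 when every peak under an enrichment of 2 was dropped, 140 with every list at the length of the shortest (373 peaks), 83 with at most 1 YPD call, 144 with at least 2 YPGly calls and 59 with no YPD call. Leaving out a repeat gave 87 to 134. The share of sites with no YPD call, 54.6%, was 78.4% at an enrichment of at least 2, 68.6% with lists of equal length, 71.1% with at most 1 YPD call, 100% by construction with none allowed, and 55.5 to 77.4% with a repeat left out. The median YPGly enrichment, 2.06, was 3.55 when peaks had at least 2, by construction higher, and 1.88 from the lower bound. With a repeat left out it was 1.88 to 2.15. The share with a gene, 98.1%, was 88.0% for a window of 1000 bp upstream and 54.6% for 500 bp. The share at most 500 bp from the ATG stayed between 48.6 and 58.6% under every alternative run, and it was 51.1 to 56.3% with a repeat left out. The share with CCGN5CGG, 15.7%, was 66.7% with 1 mismatch, which was also common elsewhere, and 14.3 to 16.9% under the other alternatives. Of 72 values, 60 stayed within the spread or interval of the main value, or within 1.5 times a count. No paired analysis was possible because the results come from no test. The lists limit what can be said of YPD: a site without a call has no value, and whether signal there was absent or below the threshold was not tested.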
